A study of Mus musculus with 6 samples.

Results

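The genes described here encode the proteins that take up glucose, break it down to pyruvate and lactate, and feed it into the pentose phosphate pathway, together with Hif1a, a transcription factor gene of the hypoxia response. They were chosen by symbol, as a list of 35 genes of 1 metabolic route. No measured value entered that rule, but earlier results of these data were known when the list was made. The array annotation named 1 gene for a probe set of 32 of them, out of 18193 genes tested in all. Gapdh was measured by Affymetrix control probe sets, which were left out of the test, so 31 genes with 68 probe sets were tested. The levels of Gpi1, Eno1 and G6pdx were not analysed here.

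All samples were injured carotid arteries of C57BL/6 mice (C57BL/6J in the methods), collected 14 days after a wire was passed through the vessel. The 3 NTG samples came from non-transgenic mice, and the 3 SMC-IRF9-TG samples from mice with a transgene of the whole mouse IRF9 coding sequence, driven by the SM22α promoter, which is active in smooth muscle cells. Per the methods the mice were males aged 10 to 12 weeks, and per the paper's results 1 transgenic line was chosen for the later evaluations. For each of the 6 Affymetrix arrays, 3 to 5 vessels were combined and 400 ng of their RNA was used, and no uninjured artery was among the samples.

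Glycolysis splits glucose into pyruvate in the cytosol. Lactate dehydrogenase turns pyruvate into lactate, whereas pyruvate dehydrogenase, inside the mitochondria, commits it to oxidation unless a pyruvate dehydrogenase kinase inhibits the enzyme. The pentose phosphate pathway branches off at glucose 6-phosphate and makes NADPH and the ribose of nucleotides. Dividing cells and activated macrophages are known for high glycolysis, and hypoxia-inducible factors raise the transcription of many of its enzymes.

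The carotid samples held the markers of their tissue. Among 12 contractile smooth muscle genes, Acta2, smooth muscle actin, read 13.28 to 13.60 on the log2 scale in NTG and 13.48 to 13.63 in SMC-IRF9-TG, and 0 of the 12 passed the test, with 1 at an unadjusted p under 0.05. Irf9 itself read 4.75 to 5.43 in NTG and 5.41 to 5.58 in SMC-IRF9-TG, so the groups overlapped and the arrays gave no check of the genotype labels by this gene. NTG pool 2 stood apart in RNA quality: the 3′ end of Actb read 7.09 above its 5′ end by the control probe sets, against 1.56 to 3.04 in the other 5 arrays. Xist, which female cells express, read 9.94 in NTG pool 1, 9.50 in NTG pool 2, and between 2.94 and 4.08 elsewhere. The high values differ from what the male mice of the methods would give, and their source was not tested. The poly-A spike-in controls averaged 5.03 in SMC-IRF9-TG pool 1, 4.55 in SMC-IRF9-TG pool 2, and 7.53 to 11.75 elsewhere. Macrophage, fibroblast and cell division genes differed widely between the groups, as given with the lists further on, and whole arteries cannot tell a change in the number of cells of a type from a change in RNA per cell.

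To place the results against the regulatory sequence of the genes, the 250 bases before the transcription start were taken from RefSeq (build GRCm38.p6) for the 33 genes with an entry, which have 48 start sites. They were searched on both strands for ACGTG or GCGTG, the core of the hypoxia response element, and for a pair of GAAA runs with 2 bases of any kind between them, the core of the interferon-stimulated response element that the IRF9 complex binds. The hypoxia core was present in 38 of the 48 windows (79.2%) and in 38.6% of all 32851 RefSeq windows of that length. The windows of these genes also held more G and C than all windows (59.4% against 53.2%). The interferon core was present in 0 of the 48 windows and in 2.98% of all windows, which says only that these letters are not in this stretch. The windows of the lactate dehydrogenase genes, whose probe sets differed in opposite directions, and of Pgd, whose probe sets were all higher, are shown 5′ to 3′ with the hypoxia core in capitals. Where a gene has several starts, the one with most matches, or the first of equal ones, is given.
Ldhb, chr6:142507958-142508207, minus strand: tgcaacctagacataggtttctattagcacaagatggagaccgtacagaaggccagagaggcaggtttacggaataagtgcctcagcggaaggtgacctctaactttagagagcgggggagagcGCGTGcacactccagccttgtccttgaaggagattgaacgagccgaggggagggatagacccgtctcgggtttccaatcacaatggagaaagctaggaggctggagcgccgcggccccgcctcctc
Ldha, chr7:46845554-46845803, plus strand: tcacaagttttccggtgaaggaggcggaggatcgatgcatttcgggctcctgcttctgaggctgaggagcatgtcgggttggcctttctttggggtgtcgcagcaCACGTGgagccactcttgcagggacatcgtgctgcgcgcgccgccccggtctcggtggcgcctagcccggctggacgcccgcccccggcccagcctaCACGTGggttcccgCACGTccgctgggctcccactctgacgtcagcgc
Pgd, chr4:149166706-149166955, minus strand: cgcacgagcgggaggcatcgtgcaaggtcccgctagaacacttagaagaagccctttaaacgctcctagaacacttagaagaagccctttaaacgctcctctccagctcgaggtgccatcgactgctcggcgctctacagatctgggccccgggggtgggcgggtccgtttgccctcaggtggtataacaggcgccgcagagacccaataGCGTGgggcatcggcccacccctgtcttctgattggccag
The Ldhb and Pgd windows had 1 match each. The Ldha window had 5 match starts, 4 of which fall in 2 copies of the palindrome CACGTG, an E-box that also holds the core on both strands.

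Of the 31 genes tested by their brightest probe set, 1 was lower in SMC-IRF9-TG and 0 were higher (limma, adjusted p of at most 0.05 over 45037 probe sets). Over all 18193 genes 0.511% were called lower and 3.11% higher. The gene that fell was Ldhb, and the remaining 30 did not pass. At an unadjusted p of at most 0.05, 6 of the 31 were higher and 3 lower, against 14.9% and 9.81% of all genes. The methods' t-test gave 4 higher and 2 lower before adjustment, 19.4% of the 31 against 19.7% of all genes, and called 0 of either after it. The groups did not overlap in 7 genes on the higher side and 4 on the lower side, against 16.1% of all genes on each side.

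The median size of the differences of these genes was close to that of all genes. Of the 31, 14 differed above 0, against 46.3% of all genes. Their median difference, SMC-IRF9-TG minus NTG, was -0.10 log2 units, beside -0.05 over all genes, and their median absolute difference was 0.36, beside 0.34. They are bright genes, with a median level of 6.79 against 4.40 over all, and the 9097 genes above the median level had a median difference of 0.23 and a median absolute difference of 0.39. They ranged from -1.65 to 0.97, and 1 of the 31 differed by more than 1 log2 unit, against 7.93% of all genes and 12.2% of those above the median level. For 15 of them the 95% interval of the difference lay wholly within 1 log2 unit of 0 against 58.4% of all genes. For the other 16 a change of that size was not excluded by the interval. The spread between pools, as the median SD, was 0.38 in NTG and 0.21 in SMC-IRF9-TG, beside 0.34 and 0.19 over all genes.

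**Figure D1:**
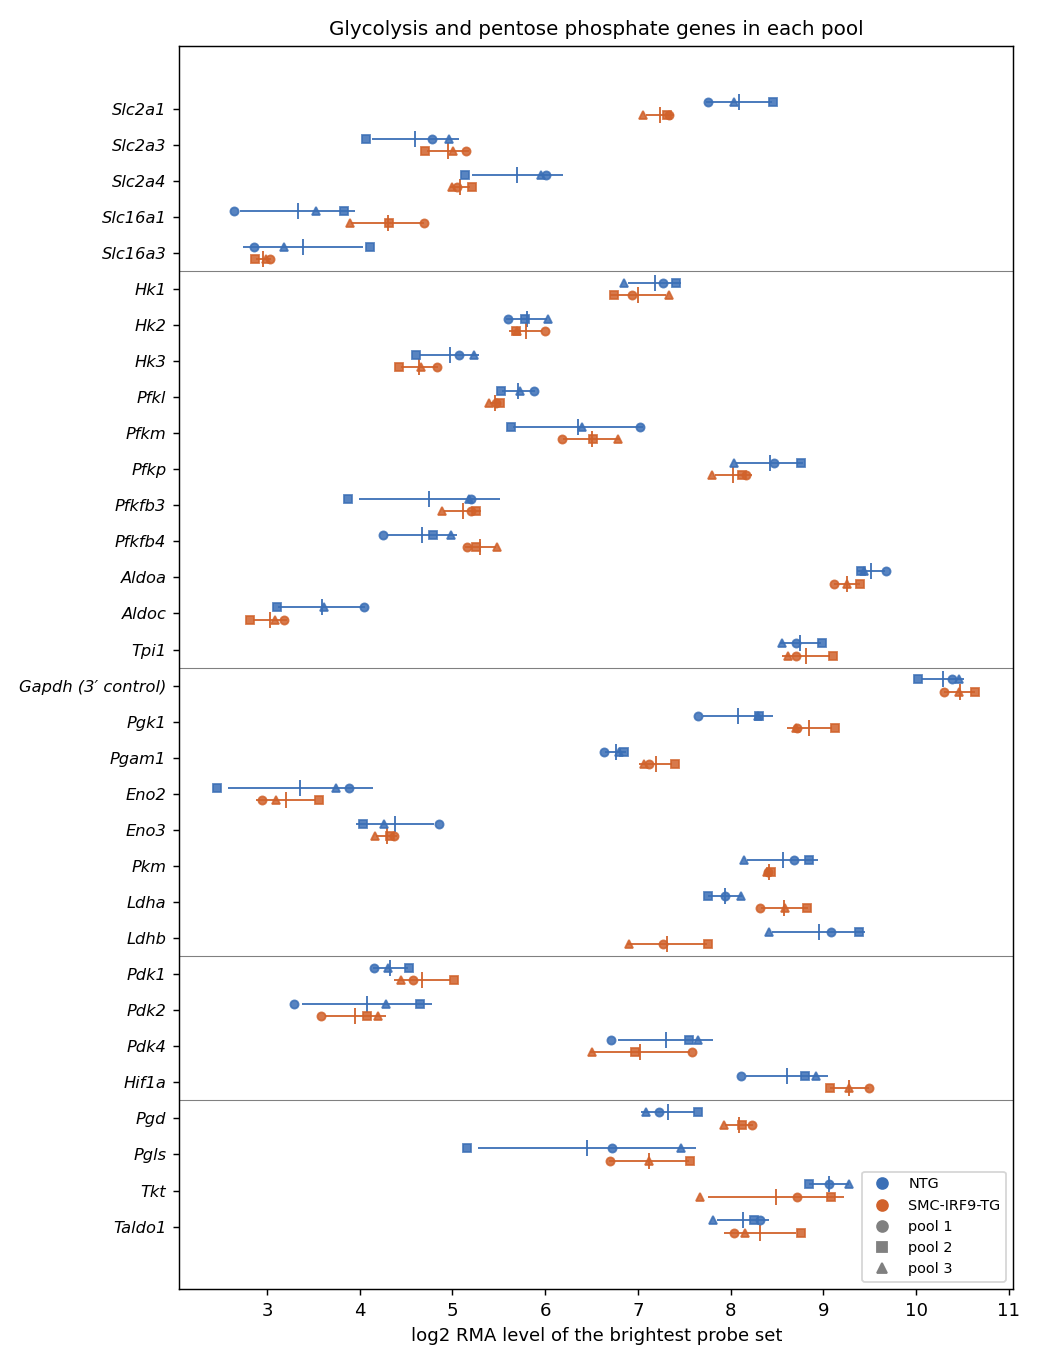
Log2 RMA level (x axis) of 32 genes of glucose transport, glycolysis, pyruvate dehydrogenase control and the pentose phosphate pathway (y axis, lines between the roles), with a point for each of 3 NTG and 3 SMC-IRF9-TG pools and bars for the mean ± SD. The points of Ldhb lie at 8.41 to 9.38 in NTG and 6.90 to 7.76 in SMC-IRF9-TG, while those of Hk2 and Tpi1 overlap.

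The lactate dehydrogenase genes differed in opposite directions, and Ldhb passed. Ldhb encodes the H subunit, which is abundant in oxidative tissue such as heart. Its brightest probe set, 1434499_a_at, had NTG values of 9.08, 9.38 and 8.41 and SMC-IRF9-TG values of 7.27, 7.76 and 6.90, in the order of the pool numbers. The highest SMC-IRF9-TG pool was below the lowest NTG pool. Ldhb fell 3.13-fold: its NTG mean was 8.95 ± 0.50 (SD, n = 3) and its SMC-IRF9-TG mean 7.31 ± 0.43, which differ by -1.65 with a standard error of 0.31 (limma, adjusted p = 0.0328). An exact permutation test over the pools gave a two-sided p of 0.1, the smallest that 3 against 3 allow. The other 3 Ldhb probe sets differed in the same direction by less and did not pass: 1455235_x_at by -0.87 (adjusted p = 0.0955), 1448237_x_at by -0.63 and 1416183_a_at by -0.35. By 1416183_a_at, SMC-IRF9-TG pool 2 read 7.75, above all NTG pools, whereas the other SMC-IRF9-TG pools read 6.96 and 6.91. With any 1 of the 6 pools omitted, 1434499_a_at passed once, without NTG pool 3 (adjusted p = 0.0241), and the mean of the 4 probe sets differed by -0.87 (adjusted p = 0.0848). Without NTG pool 2, the array with the largest loss of 5′ signal, the difference was -1.43 (adjusted p = 0.0558). With the arrays of high Xist as a block Ldhb differed by -1.10 (adjusted p = 0.203), with those of low poly-A controls as a block by -2.05 (adjusted p = 0.222), and the methods' t-test gave an adjusted p of 0.179.

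Ldha encodes the M subunit, which favours the formation of lactate. It read 7.94, 7.76 and 8.11 in NTG and 8.32, 8.82 and 8.59 in SMC-IRF9-TG by its single probe set. The groups did not overlap, but the difference of 0.64 (standard error 0.21, 95% interval 0.15 to 1.12) did not pass (adjusted p = 0.143 from limma). The Ldhb difference is thus the only one of the pair that limma called, and no test of one gene against the other was made.

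The remaining enzymes of lower glycolysis gave no call. Pgk1, phosphoglycerate kinase, which makes the first ATP of the pathway and lies on the X chromosome, read 7.65, 8.31 and 8.30 in NTG and 8.72, 9.13 and 8.70 in SMC-IRF9-TG. The groups did not overlap, and the difference of 0.77 did not pass (95% interval 0.20 to 1.33, adjusted p = 0.137 from limma). Its other probe sets differed by 0.46 and 0.06. Pgam1, phosphoglycerate mutase, read 6.63 to 6.85 in NTG and 7.07 to 7.40 in SMC-IRF9-TG, again without overlap (difference 0.43, adjusted p = 0.227). Pkm, pyruvate kinase of muscle and most other tissues, read 8.14 to 8.85 in NTG and 8.39 to 8.44 in SMC-IRF9-TG, so that the SMC-IRF9-TG values fell inside the NTG range (difference -0.15, 95% interval -0.67 to 0.37). Eno2 and Eno3, the enolases of neurons and of muscle, differed by -0.15 and -0.10.

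Gapdh, which oxidizes glyceraldehyde 3-phosphate, could be read only from control probe sets along its transcript. At the 3′ end it read 10.39, 10.02 and 10.46 in NTG and 10.30, 10.64 and 10.46 in SMC-IRF9-TG, a difference of 0.18 (adjusted p = 0.604 from limma in a fit that kept the control probe sets). At the 5′ end it read 7.23, 3.70 and 6.79 in NTG and 6.78, 9.28 and 8.36 in SMC-IRF9-TG, a difference of 2.24 (adjusted p = 0.208). The size of the difference of this 1 transcript thus ran from 0.18 at the 3′ end through 1.24 in the middle to 2.24 at the 5′ end. NTG pool 2 was the lowest array at all 3 positions.

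In upper glycolysis none of the 11 genes tested passed, and 1 had an unadjusted p of at most 0.05. The hexokinases trap glucose in the cell by phosphorylation. Hk1, the widespread form, read 6.85 to 7.41 in NTG and 6.74 to 7.33 in SMC-IRF9-TG (difference -0.17, 95% interval -0.72 to 0.37). Hk2, the form that insulin and hypoxia raise in muscle, read 5.60, 5.78 and 6.03 in NTG and 6.00, 5.68 and 5.70 in SMC-IRF9-TG. The Hk2 ranges were nearly the same, with a difference of -0.01 and a 95% interval from -0.48 to 0.46. Hk3, the form of myeloid cells, read 5.07, 4.61 and 5.23 in NTG and 4.83, 4.42 and 4.66 in SMC-IRF9-TG (difference -0.33, 95% interval -0.86 to 0.19), and its dimmer probe set differed by 0.34. On the same arrays 16 macrophage markers differed by 0.16 to 5.42, with a median of 3.62. The part of macrophages in the Hk3 values was not tested.

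Phosphofructokinase commits the sugar to glycolysis, and its liver, muscle and platelet forms differed by -0.25 (Pfkl), 0.15 (Pfkm) and -0.39 (Pfkp), with adjusted p from 0.348 to 0.811. Pfkl read 5.52 to 5.88 in NTG and 5.39 to 5.51 in SMC-IRF9-TG, so its ranges just failed to meet. The dimmer Pfkl probe sets differed by -0.14 and -0.39, with overlap. Pfkm read 5.63 in NTG pool 2 and 7.02 and 6.40 in the other NTG pools, and without NTG pool 2 its difference was -0.21 in place of 0.15. Of the bifunctional enzymes that set the level of fructose 2,6-bisphosphate, an activator of phosphofructokinase, Pfkfb4 read 4.25, 4.79 and 4.98 in NTG and 5.16, 5.25 and 5.48 in SMC-IRF9-TG. Those groups did not overlap, and the difference of 0.62 did not pass (adjusted p = 0.181 from limma). Pfkfb3 read 3.87 in NTG pool 2 and 4.89 to 5.25 in the other 5 arrays (difference 0.36, adjusted p = 0.546), and without NTG pool 2 its difference was -0.08.

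Aldolase cleaves the 6-carbon sugar and triose phosphate isomerase interconverts the products. Aldoa, the aldolase of muscle, read 9.41 to 9.68 in NTG and 9.11 to 9.40 in SMC-IRF9-TG by its brightest probe set, 1416921_x_at. Its ranges just failed to meet, and the difference of -0.26 did not pass (95% interval -0.69 to 0.18). The nearly as bright 1439375_x_at read 9.81, 9.81 and 9.54 in NTG and 8.82, 9.07 and 8.94 in SMC-IRF9-TG (difference -0.78, adjusted p = 0.0736), while 1433604_x_at, with 6.97 in NTG pool 2, differed by 0.20. Aldoc, the aldolase of brain, differed by -0.56 and -0.55 by its 2 probe sets, the second of which lay under the mean lower quartile of the arrays in SMC-IRF9-TG and is not known to be above background. Tpi1 read 8.55 to 8.99 in NTG and 8.62 to 9.10 in SMC-IRF9-TG, and its 3 probe sets differed by 0.06, 0.21 and 0.03.

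**Figure D2:**
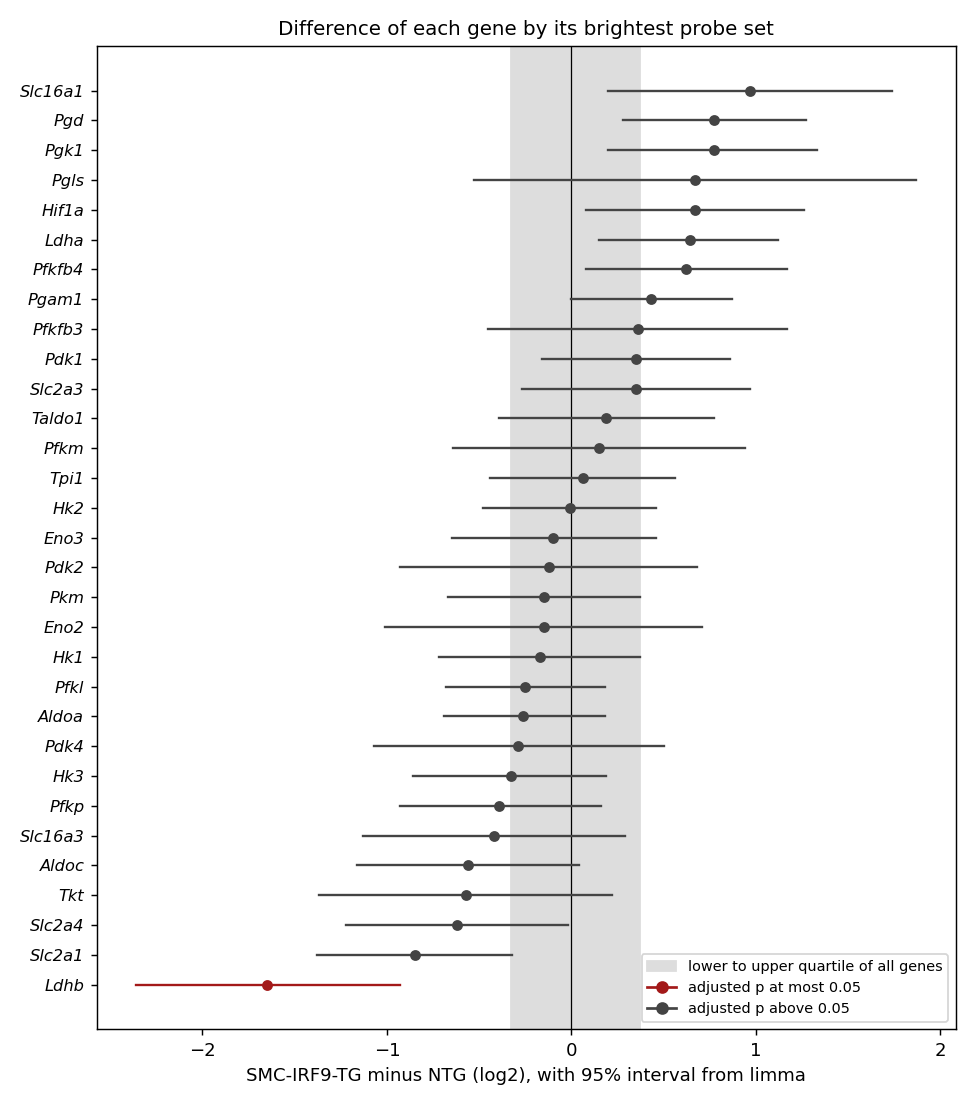
Difference SMC-IRF9-TG minus NTG in log2 units (x axis) of the 31 genes tested (y axis), with the 95% interval from limma, and a grey band from the lower to the upper quartile of all genes (-0.33 to 0.37). The interval of Ldhb (-2.36 to -0.93) is the one drawn in red, and 30 genes with adjusted p above 0.05 are drawn in grey.

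Among the transporters, Slc2a1 had the smallest adjusted p by its brightest probe set. It encodes GLUT1, the glucose carrier of most proliferating cells. By 1434773_a_at it read 7.76, 8.46 and 8.04 in NTG and 7.34, 7.31 and 7.06 in SMC-IRF9-TG. The groups did not overlap, with a difference of -0.85 (SE 0.23, 95% interval -1.38 to -0.32, adjusted p = 0.0942 from limma). The probe sets disagreed in sign: 1426599_a_at differed by -0.39 and 1426600_at by 0.55, the last with NTG values of 5.74, 3.95 and 6.42 of which NTG pool 2 was the lowest. Slc2a4, the insulin-responsive GLUT4 of muscle and fat, read 6.01, 5.14 and 5.95 in NTG and 5.05, 5.21 and 4.99 in SMC-IRF9-TG (difference -0.62, adjusted p = 0.214). NTG pool 2 lay among the SMC-IRF9-TG pools, and without it the difference was -0.90 and passed (adjusted p = 0.0463). This was the only pass of Slc2a4 in 18 alternatives. The other Slc2a4 probe set, 1415959_at, differed by -0.30, with overlap (adjusted p = 0.424 from limma). Of 15 skeletal muscle markers 13 differed below 0 and 0 passed, with 3 at an unadjusted p under 0.05 and a mean level of 3.15 to 3.41 in NTG and 2.88 to 2.99 in SMC-IRF9-TG. Their part in the Slc2a4 values was not tested. Slc2a3, the GLUT3 of neurons and leukocytes, had probe sets of both signs (0.35, 0.46, -0.80 and -0.17). Those below 0 lay under the mean lower quartile of the arrays in SMC-IRF9-TG.

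The lactate carriers also gave no call. Slc16a1 encodes MCT1, which moves lactate in either direction. It read 2.64, 3.83 and 3.53 in NTG and 4.69, 4.32 and 3.90 in SMC-IRF9-TG, a difference of 0.97 (95% interval 0.20 to 1.74, adjusted p = 0.156 from limma), with no overlap between the groups. The gap between NTG pool 2 and SMC-IRF9-TG pool 3, at 3.83 and 3.90, was small beside the spread in either group, and its dimmer probe set differed by -0.23. By the brighter probe set, NTG pool 1, at 2.64, lay just above the lower quartile of that array, 2.57. Slc16a3 encodes MCT4, the lactate exporter of glycolytic cells, and read 2.86 to 4.11 in NTG and 2.87 to 3.03 in SMC-IRF9-TG (difference -0.42).

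In the pentose phosphate pathway, Pgd was higher by every probe set, of which 1 passed. Pgd encodes 6-phosphogluconate dehydrogenase, the second of the NADPH-making steps. Its brightest probe set, 1436771_x_at, read 7.23, 7.65 and 7.09 in NTG and 8.23, 8.12 and 7.93 in SMC-IRF9-TG (difference 0.77, standard error 0.22, adjusted p = 0.103 from limma). The probe set that passed, 1437380_x_at, read 6.99, 7.43 and 6.95 in NTG and 8.25, 8.14 and 7.94 in SMC-IRF9-TG, a 1.98-fold rise (difference 0.99, standard error 0.21, adjusted p = 0.0493). The remaining probe sets differed by 1.18 (1423706_a_at, adjusted p = 0.053) and 0.67 (1438627_x_at, adjusted p = 0.10). The groups did not overlap in any of the 4, with SMC-IRF9-TG above NTG. The mean of the 4 differed by 0.90 and passed (adjusted p = 0.0203), and without NTG pool 2 the brightest passed (difference 0.94, adjusted p = 0.047). These were the only passes of Pgd in 18 alternatives, whose adjusted p reached 0.823 with the block for low poly-A controls. Omitting SMC-IRF9-TG pool 1, 2 or 3 gave 0.314, 0.299 and 0.225, quantile normalization 0.269, the block for high Xist 0.161 and the methods' t-test 0.192. Probe sets ending in x_at may hold probes that match other transcripts, and 3 of the 4 do so end. Of all 68 probe sets of these genes, 1 was called higher and 1 lower, against 2.37% and 0.373% of the 45037 on the array.

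The other enzymes of this pathway did not separate the groups. Pgls, which precedes Pgd, read 6.72, 5.16 and 7.47 in NTG and 6.70, 7.56 and 7.12 in SMC-IRF9-TG. NTG pool 2 was far below the other 5 arrays, and the 95% interval of the difference ran from -0.53 to 1.87. Tkt, transketolase, read 9.06, 8.85 and 9.28 in NTG and 8.72, 9.08 and 7.67 in SMC-IRF9-TG by its brightest probe set (difference -0.57, adjusted p = 0.343), with SMC-IRF9-TG pool 3 lowest, and its other probe sets differed by 0.16 and -0.21. Taldo1, transaldolase, read 7.81 to 8.32 in NTG and 8.04 to 8.76 in SMC-IRF9-TG (difference 0.19).

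**Figure D3:**
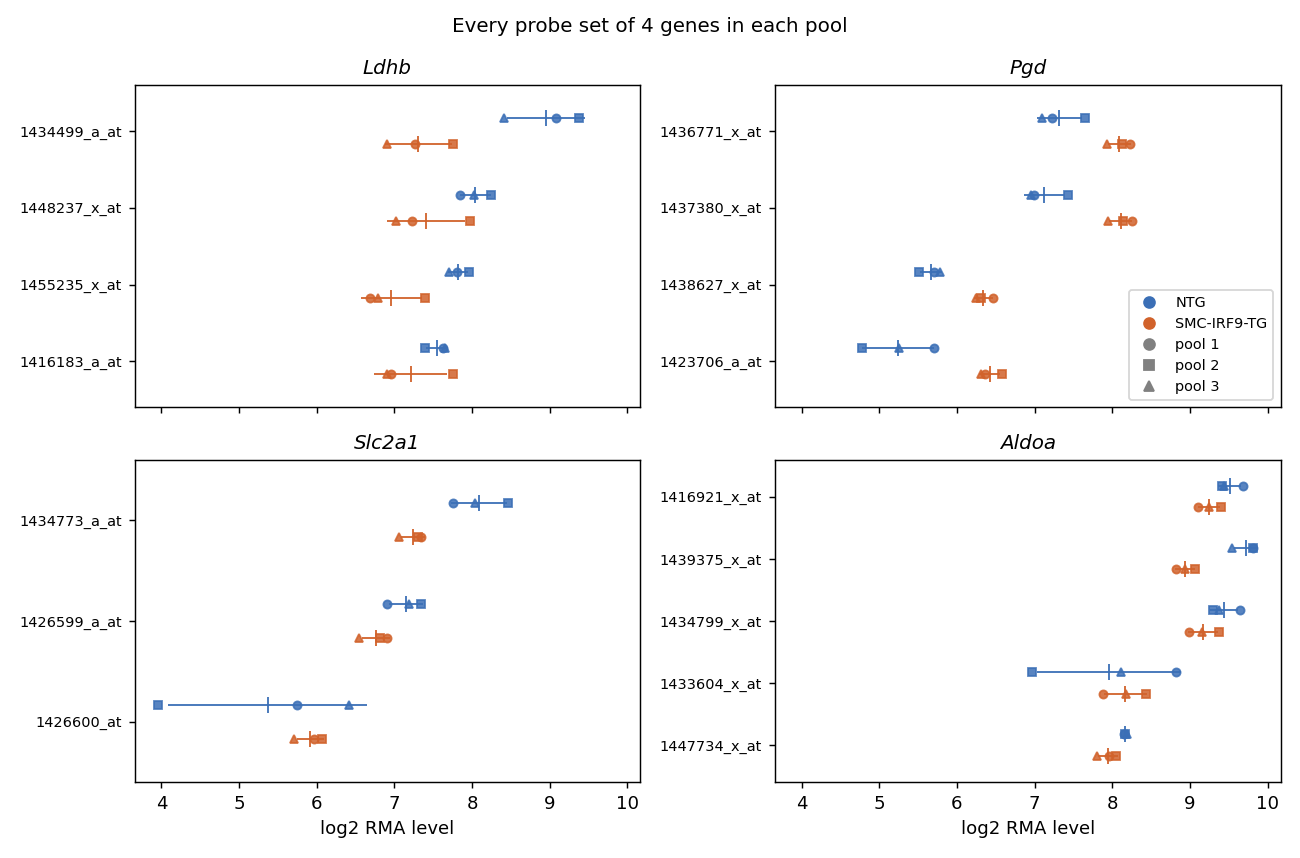
Log2 RMA level (x axis) of every probe set (y axis) of Ldhb, Pgd, Slc2a1 and Aldoa in each of the 6 pools, with bars for the mean ± SD. The 4 Pgd probe sets all separate the groups, the 4 Ldhb probe sets differ between -1.65 and -0.35, and NTG pool 2 (squares) lies far left at Slc2a1 1426600_at and Aldoa 1433604_x_at.

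The regulators gave no call. Hif1a, the oxygen-regulated subunit whose level is set largely by protein breakdown, read 8.11, 8.80 and 8.92 in NTG and 9.49, 9.07 and 9.28 in SMC-IRF9-TG by its brightest probe set. The groups did not overlap, and the difference of 0.67 did not pass (95% interval 0.08 to 1.26, adjusted p = 0.184 from limma). The next brightest differed by 0.30, with overlap, and its remaining probe sets lay under the mean lower quartile of the arrays in both groups. The pyruvate dehydrogenase kinases inhibit pyruvate dehydrogenase. Pdk1, a known target of Hif1a, differed by 0.35, 0.37 and 0.39 by its 3 brighter probe sets. The last of them separated the groups, and none passed (adjusted p = 0.301 to 0.37 from limma). Pdk2 differed by -0.12. Pdk4, which fasting and fatty acids raise, read 6.71 to 7.65 in NTG and 6.50 to 7.58 in SMC-IRF9-TG (difference -0.29).

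Several members were measured more than once, and the measurements did not always share a sign. Of 18 genes with several probe sets, 10 had differences on both sides of 0. The Hif1a, Pdk1 and Pfkfb3 probe sets below 0 lay under the mean lower quartile of the arrays in both groups. The Hk1 probe set above 0 lay under it in NTG, and the Slc2a3 probe sets below 0 in SMC-IRF9-TG. These probe sets are not known to be above background. The genes whose probe sets all lay on 1 side were Pgd, Pgk1 and Tpi1 above 0 and Ldhb, Aldoc, Pfkl, Pfkp and Slc2a4 below it. NTG pool 2 was the lowest NTG array in 34 of the 68 probe sets and the highest in 23. SMC-IRF9-TG pool 2 was the highest of its group in 37 and the lowest in 16. SMC-IRF9-TG pool 3 was the highest in 10 and the lowest in 33. These counts were not set beside those over all probe sets. The median level of the 31 genes was 5.78 in NTG pool 2 and 6.70 to 6.80 in the other arrays.

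Neighbouring pathways behaved alike in that 0 of their genes passed. Of all genes, 14.9% were higher and 9.81% lower at an unadjusted p of at most 0.05 (limma), the share for the counts below. Of 28 other genes of sugar transport, glycolysis and the pentose phosphate pathway, 6 had an unadjusted p of at most 0.05. Bsg, the chaperone that carries MCT1 and MCT4 to the membrane, read 7.28, 5.59 and 7.47 in NTG and 7.63, 8.88 and 8.49 in SMC-IRF9-TG (difference 1.56, adjusted p = 0.141 from limma). Txnip, an inhibitor of glucose uptake, differed by 0.50. Gpd1, which diverts triose phosphate to glycerol 3-phosphate, was the nearest to the threshold in this list and was named after its value was seen (difference -1.16, adjusted p = 0.0572).

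Of 27 genes of pyruvate entry and the citric acid cycle, 11 had an unadjusted p of at most 0.05, with a median difference of 0.17. The malate dehydrogenases Mdh2 and Mdh1 differed by -0.53 and -0.27. Named after their values were seen, Pdp2, the phosphatase that opposes the pyruvate dehydrogenase kinases, differed by -1.41 (adjusted p = 0.0571), and Sdhd, Idh3a and Dld differed by 1.12, 1.17 and 1.26 (adjusted p of 0.0753 to 0.0805). Of 14 genes of glycogen metabolism 10 differed above 0 and 4 below, with a median of 0.23, and 3 had an unadjusted p of at most 0.05. Gyg, glycogenin, which primes the glycogen chain, differed by 0.09, and Ugp2, which makes the UDP-glucose for it, by 0.65 (adjusted p = 0.221 from limma). Gys1, glycogen synthase of muscle, read 6.19 to 6.35 in NTG and 5.33 to 5.57 in SMC-IRF9-TG (difference -0.83, adjusted p = 0.0541), and was also named after its value was seen.

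Of 19 other genes of the hypoxia response, 12 differed above 0 and 7 below, with a median of 0.10, and 6 had an unadjusted p of at most 0.05. Epas1, which encodes HIF-2α, and Ndrg1 differed by 0.19 and 0.10. Named after their values were seen, P4ha1 and P4ha2, the prolyl hydroxylases of collagen, differed by 1.29 (adjusted p = 0.0552) and 0.83, while Adm, adrenomedullin, differed by -1.52 (adjusted p = 0.0659).

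The same arrays held large differences in cell markers. Of 16 macrophage markers 14 were higher, with a median difference of 3.62, and their mean level was 3.59 to 4.27 in NTG and 7.31 to 7.52 in SMC-IRF9-TG. Of 10 fibroblast markers 6 were higher (median 1.60), and of 11 cell division genes 7 were higher (median 1.65). Of 8 neutrophil markers 0 passed, with 4 at an unadjusted p under 0.05, and S100a8 had SMC-IRF9-TG values of 8.83, 9.99 and 4.34. Of 9 adipocyte markers 1 was higher, Lpl, which macrophages also express. Of 10 endothelial markers 1 was higher, and the brightest, Vwf, Tek and Esam, differed by -0.81, -0.03 and 0.25 without passing. Of 5 erythrocyte genes 0 passed, with 3 at an unadjusted p under 0.05. The part of these cells in the Ldhb and Pgd values was not tested.

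**Figure D4:**
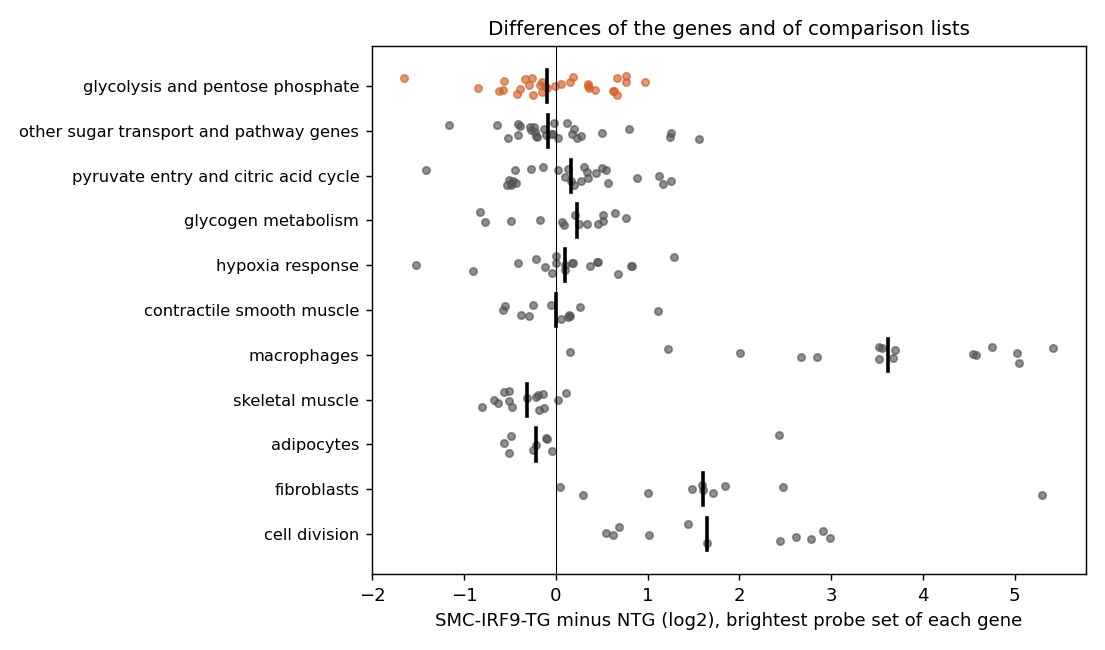
Difference SMC-IRF9-TG minus NTG in log2 units (x axis) of each gene by its brightest probe set, in the glycolysis and pentose phosphate genes (orange) and in 10 comparison lists (grey) on the y axis, with a black bar at each median. The orange points lie between -1.65 and 0.97 around a median of -0.10, and the macrophage points around a median of 3.62.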

How the data were processed

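RNA of 3 NTG and 3 SMC-IRF9-TG pools of injured carotids was measured, 1 array a pool. The authors deposited log2 values per probe set from RMA (background correction, quantile normalization, summary over probes), run in Affymetrix Expression Console per the labels. No version was found in the sources used here. Scanner files were not used here, so detection was not checked. A quantile method is meant to tie the arrays to 1 distribution, but array medians were 3.42 to 3.66. The lower quartiles of the arrays were 2.57 to 2.66 in NTG and 2.33 to 2.41 in SMC-IRF9-TG. Differences are relative to the bulk of transcripts, and shifts of this size between the arrays remain in them.

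Of 45101 probe sets, 45037 were tested, without 64 Affymetrix controls, with limma 3.58.1 in R 4.3.3 (lmFit and eBayes, two-sided, Benjamini-Hochberg over all probe sets, threshold 0.05). The methods give tests for the paper as a whole and none for the array, and limma was chosen for its pooled variance with 3 arrays a group. Genes were named from the platform annotation where it gives 1 symbol (34945 probe sets, with 932 naming several and 9160 unnamed here), and each gene was taken by its probe set of highest mean over 6 arrays. In the other pathway lists the 2 genes of highest level were named, since none passed, and in the marker lists up to 3 of highest level. The labels do not say which animals went into a pool, so p-values reflect only the variation among these pools, and 6 arrays limit the precision. The fit was tested on simulated data. Exact permutation tests and figures used Python 3.11.15, scipy 1.17.1 and matplotlib 3.10.9.

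The members and lists were chosen with earlier results of these data known. The alternatives were other scalings, a filter on dim probe sets, other variance priors, array weights, the methods' t-test, a replicate block, blocks for high Xist and for low poly-A controls, each array left out, other choices of probe set and other thresholds. A fit with the control probe sets was added after seeing the data.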

Additional observations from a re-analysis of the deposited data

How the results depend on the processing

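The count of 0 genes higher and 1 lower held after median centring of the arrays, quantile normalization, a filter on dim probe sets, a trended and robust prior, array weights, the replicate block, the probe set of largest spread and the fit with control probe sets. The same replicate numbers did not pair the samples (correlations of -0.15, 0 and 0.03), and with the replicate block 0 genes were higher and 1 was lower, while over all genes the calls went from 566 higher and 93 lower to 355 and 49. The count lower was 0 with the methods' t-test, with the block for high Xist, with the block for low poly-A controls and at a threshold of 0.01, and it was 2 at a threshold of 0.1. With a gene taken as the mean of its probe sets it was 0, and 1 gene, Pgd, was higher. Leaving out 1 pool gave 0 to 1 genes higher and 0 to 1 lower. Each block for Xist or poly-A controls leaves 1 pool of a group to carry the difference. The median difference ranged from -0.18 to 0.15. The pooled SD of the pools' median levels was 0.40, with NTG pool 2 at 5.78 and the others at 6.70 to 6.80.

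Over 18 alternatives the adjusted p of Ldhb ranged from 0.0195 to 0.222 and its difference from -2.05 to -0.87. Of 555 values of single genes under the alternatives, 39 changed sign, all without passing. After centring Hk2 differed by 0.08. After quantile normalization Pfkm, Taldo1 and Tpi1 differed by -0.17, -0.08 and -0.21. With array weights Hk2, Pdk2 and Pfkm differed by 0.03, 0.08 and -0.03. With the Xist block Eno3, Hk1, Pfkfb3, Pgls, Pkm and Slc2a3 differed by 0.03, 0.15, -0.06, -0.35, 0.27 and -0.01, and with the poly-A block Hk1, Pdk2 and Tpi1 by 0.15, 0.13 and -0.13. By the probe set of largest spread Aldoa, Hk3, Slc2a1, Slc2a3 and Tkt differed by 0.20, 0.34, 0.55, -0.80 and 0.16, and by the mean of all probe sets Hk1, Hk3, Pfkfb3 and Slc2a3 by 0.02, 0, 0 and -0.04. Without 1 pool, the lowest and highest differences were -0.60 and 0.11 for Eno2, -0.27 and 0.14 for Eno3, -0.11 and 0.10 for Hk2, -0.51 and 0.17 for Pdk2, -0.08 and 0.59 for Pfkfb3, -0.21 and 0.48 for Pfkm, -0.03 and 0.33 for Taldo1, -0.09 and 0.18 for Tpi1. The causes of these changes were not tested. Scanner files were not used here, so signal over background limits dim genes in a way not measured.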
